A study of Mus musculus with 12 samples.

Results

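Transcript levels of 10 genes of epidermal growth factor (EGF) signalling were followed in mouse liver: the ligands Areg, Ereg, Btc, Hbegf, Tgfa and Egf, the receptors Egfr, Erbb2 and Erbb3, and the receptor inhibitor Errfi1. They were picked by gene symbol from the 50600 genes counted in each library, and all 10 were found. Of these, 9 passed the filter on low counts, together with 15219 genes in all, and Ereg did not. The study used the Rosa26-LSL-dCas9-p300 mouse strain, in which a stop cassette, removable by Cre recombinase, precedes a gene for nuclease-dead Cas9 joined to the histone acetyltransferase p300, inserted at Rosa26. A Pdx1 gRNA group and a control gRNA group received adeno-associated virus (AAV.Cbh.gRNA) at 1e+12 viral genomes per mouse, and a PBS group received no virus. All 3 groups were injected at about 8 weeks of age, livers were taken 2 weeks later, and polyadenylated RNA was sequenced in 4 libraries a group. The control gRNA had no target named in the labels, and for the source of Cre, the sex of the animals and the gRNA sequences the sources used here give nothing. The virus, its gRNA and whatever else it delivered therefore cannot be told apart in a comparison with PBS. The labels do not tie libraries to single mice, so the p-values rest on a spread between libraries that may be technical.

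EGF family ligands are made as membrane-bound precursors that proteases such as ADAM17 cut free. The freed ligand binds EGFR, which pairs with itself or with ERBB2, ERBB3 or ERBB4, and the paired kinases signal through Ras and ERK. In liver this pathway is known for hepatocyte proliferation after injury or resection, with Egfr and Erbb3 as the main receptors of hepatocytes.

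Assigned counts ran from 13531769 to 18063529 a library with Pdx1 gRNA, from 16963079 to 22008046 with control gRNA and from 11824767 to 17870498 with PBS. Pdx1, the gene targeted, had 26, 32, 54 and 256 counts in the Pdx1 gRNA libraries, 0, 0, 0 and 2 in the control gRNA libraries and 0 in each PBS library. PBS libraries 2 and 3 had 33 and 43 counts of Xist and 1024 and 828 counts of the Y-linked Ddx3y, while the other 10 libraries had at least 10696 of Xist and at most 3 of Ddx3y. The members' fold changes against PBS are therefore also given without these male-pattern libraries. As a check of the liver label, all 8 hepatocyte markers were detected in each group, with a summed level of 51316 to 104255 CPM (counts scaled to a common library size) with Pdx1 gRNA, 51976 to 70341 with control gRNA and 90806 to 125690 with PBS. CPM here use library sizes scaled by trimmed means of M values (TMM).

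Ligand genes of this family share a stretch of mouse chromosome 5. On the GRCm38 (mm10) build, Areg lies at chr5:91139599-91148432 on the plus strand, Ereg at chr5:91074622-91093646 on the plus strand, 46.0 kb away, and Btc at chr5:91357261-91402994 on the minus strand, 209 kb away. Of the other members, Egfr lies at chr11:16752203-16918158, Erbb2 at chr11:98412470-98437716 and Errfi1 at chr4:150853919-150868892, all on the plus strand, and Erbb3 at chr10:128567523-128589652 on the minus strand. Counting was done without strand, so reads from exons that 2 genes share cannot be told apart. Gene spans overlapped for Egfr (antisense Egfros), Erbb2 (Mien1) and Errfi1 (1700045H11Rik). The overlapping genes were themselves assigned 97, 4126 and 152 counts over the 12 libraries. Ereg, Tgfa, Egf and Erbb3 also overlapped other genes, each with at most 18 counts. Whether exons overlap was not checked.

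Because Areg had the largest rise among the members, and Egfr and Errfi1 the largest falls, in control gRNA against PBS, the 250 bases before their start sites are shown (RefSeq, GRCm38.p6, plus strand, 5′ to 3′). Capitals mark the cAMP response element TGACGTCA. The windows are chr5:91139349-91139598 for Areg, chr4:150854820-150855069 for Errfi1 and chr11:16751953-16752202 for Egfr.
Areg: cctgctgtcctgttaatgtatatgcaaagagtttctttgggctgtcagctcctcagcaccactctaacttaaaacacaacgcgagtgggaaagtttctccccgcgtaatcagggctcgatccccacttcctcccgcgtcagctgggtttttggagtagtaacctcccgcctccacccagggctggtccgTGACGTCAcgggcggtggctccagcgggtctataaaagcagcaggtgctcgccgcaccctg
Errfi1: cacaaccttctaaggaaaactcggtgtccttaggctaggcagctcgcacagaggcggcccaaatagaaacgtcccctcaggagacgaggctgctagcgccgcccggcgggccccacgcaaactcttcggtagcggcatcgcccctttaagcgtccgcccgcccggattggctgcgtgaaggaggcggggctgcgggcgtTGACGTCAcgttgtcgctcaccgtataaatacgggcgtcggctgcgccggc
Egfr: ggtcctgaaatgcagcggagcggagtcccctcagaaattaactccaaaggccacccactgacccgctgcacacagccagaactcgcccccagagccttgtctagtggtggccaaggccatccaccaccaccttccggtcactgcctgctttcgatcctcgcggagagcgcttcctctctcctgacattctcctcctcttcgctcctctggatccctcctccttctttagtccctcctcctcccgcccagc
The element, which reads the same on both strands, was searched for in the upstream windows that the RefSeq table holds for 7 of the members, 9 windows in all. It was found in 2 members: in Areg, 61 bases before the start, and in 1 of the Errfi1 windows, 51 bases before the start, but in neither Egfr nor the windows of Btc, Tgfa, Egf and Erbb2. Over 32851 promoters of this length 1.55% held it. Both matching windows also held TATAAA on either strand (12.4% of promoters), which begins 31 bases before the start in Areg and 28 in Errfi1. A second Errfi1 window, at another start site, held neither. None of the 9 windows held TGANTCA, the AP-1 motif, found in 6.75% of promoters on either strand. The other motifs searched were TGATGNAA, a C/EBP-ATF motif, and GGGCGG, the GC box. The first was in none of the 9 windows (3.45% of promoters). The second was in the Areg, Tgfa and Egfr windows and the Errfi1 window with the cAMP response element (32.7% of promoters). These matches describe letters in a window and say nothing about which factor binds.

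Against PBS, Areg was far higher in both virus groups, and Egfr, Erbb3 and Errfi1 were lower in both. Control gRNA against PBS called 4 of the 9 tested members (1 rose, 3 fell) at an edgeR adjusted p under 0.05, beside 32.1% of all 15219 tested genes (16.3% rose and 15.8% fell). Pdx1 gRNA against PBS called 5 (2 rose, 3 fell), beside 22.1% of all genes (11.7% rose and 10.4% fell). Both comparisons use the same PBS libraries, so their calls are not independent of each other. In Pdx1 gRNA against control gRNA no member was called, beside 0% of all genes. There 918 genes (6.03%) had an unadjusted p under 0.05, among them Egfr as the only member, and DESeq2 called 14 genes and limma-voom 0. The 9 members had a median log2 fold change of 0.06 between the virus groups, 0.01 in control gRNA against PBS and -0.10 in Pdx1 gRNA against PBS, beside -0.01, -0.01 and -0.06 for all tested genes in these comparisons. Of all calls, 50.9% were rises in control gRNA against PBS, 61.8% with upper-quartile factors and 80.6% on library sizes alone. In Pdx1 gRNA against PBS rises were 53.0% of calls, 58.7% with upper-quartile factors and 81.3% on library sizes alone. Without the male-pattern PBS libraries the members called were the same 4 in control gRNA against PBS, and Areg and Erbb3, 2 members, in Pdx1 gRNA against PBS. That fit tested 16170 genes, among them all 10 members. It called fewer genes of all kinds, 2258 in control gRNA against PBS and 1277 in Pdx1 gRNA against PBS, beside 4887 and 3370 with all libraries.

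**Figure D1:**
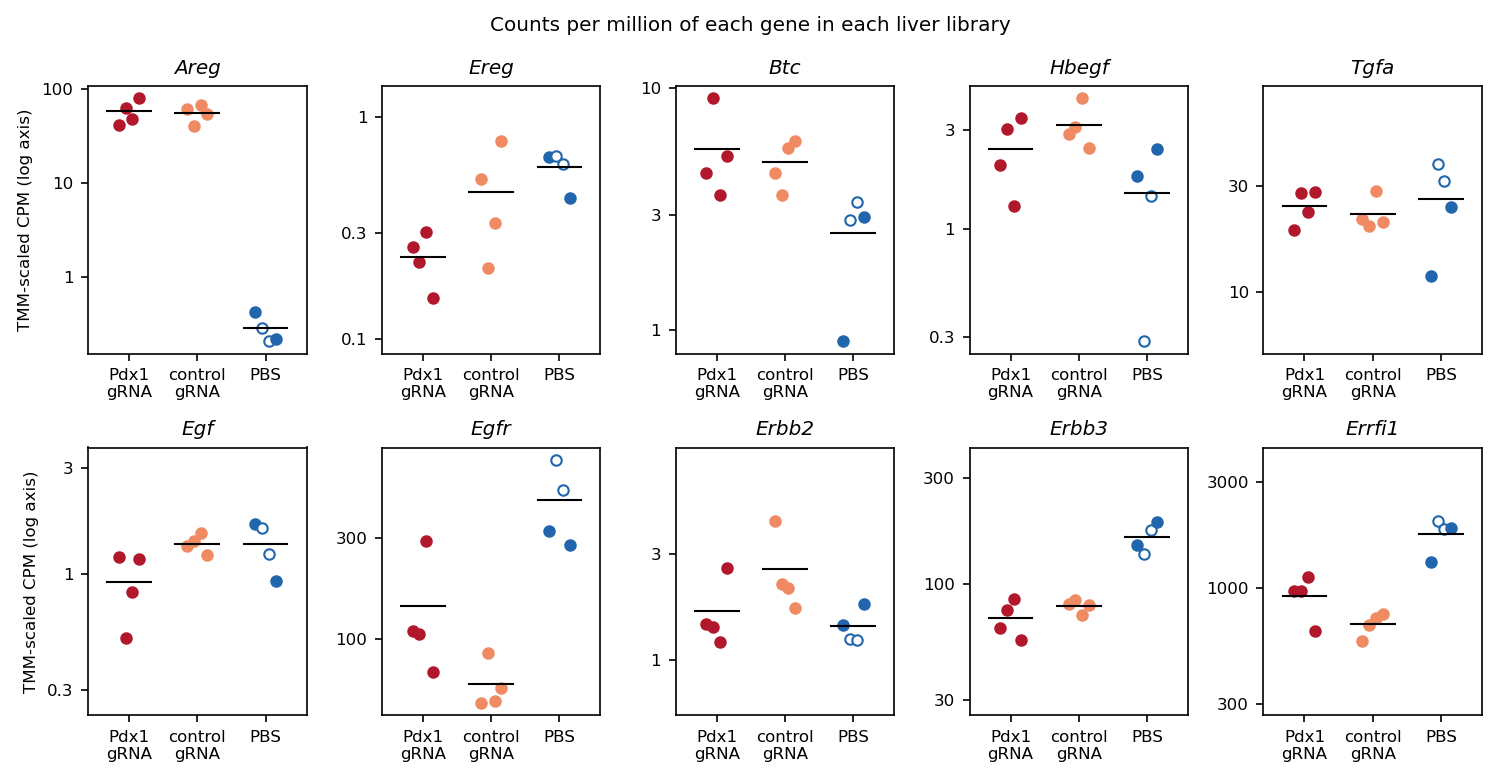
TMM-scaled CPM (log axis) of each of the 10 genes in each library, with Pdx1 gRNA left, control gRNA in the middle and PBS right. Points are libraries, bars are means of 4, and open circles are the male-pattern PBS libraries; Areg sits between 40.4 and 79.3 CPM in the 8 virus libraries and at or below 0.420 CPM in PBS.

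Areg encodes amphiregulin, a ligand of EGFR. It had 793, 837, 638 and 1562 counts in the Pdx1 gRNA libraries and 1616, 775, 1605 and 975 in the control gRNA libraries, against 7, 3, 2 and 3 in the PBS libraries. The lowest virus library stood far above the highest PBS library, and the virus groups overlapped each other. In CPM, Areg averaged 57.6 ± 16.8 with Pdx1 gRNA, 55.3 ± 11.1 with control gRNA and 0.281 ± 0.099 with PBS (SD, n = 4 each). The log2 fold change was 7.53 ± 0.325 (SE; adjusted p = 9.79e-08) in control gRNA against PBS, an estimated 185-fold, and 7.59 ± 0.325 (adjusted p = 9.02e-08) in Pdx1 gRNA against PBS, an estimated 193-fold. By size of rise among all tested genes Areg ranked 7 in control gRNA against PBS and 5 in Pdx1 gRNA against PBS. With only 15 counts over the PBS group, the size of the fold rests on few reads. With the male-pattern PBS libraries left out the values were 7.36 (adjusted p = 1.10e-04) in control gRNA against PBS and 7.44 (adjusted p = 1.01e-04) in Pdx1 gRNA against PBS. Between the virus groups the difference was 0.06 ± 0.21 (adjusted p = 0.972), with the higher mean in Pdx1 gRNA but the opposite sign under upper-quartile factors (-0.01) and library sizes alone (-0.01). Pdx1 gRNA library 4, with the highest Areg CPM (79.3), was also the one with the most Pdx1 counts. Pdx1 gRNA library 1, with the fewest Pdx1 counts of that group (26), also had its lowest Areg CPM (41.1). Libraries 2 and 3 were in the opposite order. Library 3, with 54 Pdx1 counts, had 48.2 CPM of Areg, and library 2, with 32, had 61.7. Control gRNA library 3, with 0 Pdx1 counts, had 66.4. A link between the 2 genes was not tested.

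Amphiregulin is known to be made by several immune cells besides epithelium. The 10 markers of type 2 lymphoid cells, regulatory T cells, mast cells and basophils summed to 1.96 to 13 CPM with Pdx1 gRNA, 3.44 to 5.33 with control gRNA and 0.760 to 2.22 with PBS. Fcer1a and Ms4a2, both subunits of the IgE receptor of mast cells and basophils, were at 0 in all 12 libraries. By mean CPM, Il4 and Foxp3 were higher in both virus groups than in PBS. Il1rl1 went the other way, at 0.126 CPM with Pdx1 gRNA and 0.176 with control gRNA, against 0.426 with PBS. The sum of 13 CPM was that of Pdx1 gRNA library 4, where Gata3 alone had 10.9 CPM. Of the list, 2 genes could be tested, and Gata3 rose. Its log2 fold change was 2.96 (adjusted p = 0.0377) in control gRNA against PBS and 3.27 (adjusted p = 0.0341) in Pdx1 gRNA against PBS. Gata3 had 22, 8, 11 and 214 counts in the Pdx1 gRNA libraries, 88, 37, 81 and 43 in the control gRNA libraries and 14, 0, 2 and 3 in the PBS libraries, and neither call held without the male-pattern libraries (2.31, adjusted p = 0.209, with control gRNA and 2.66, adjusted p = 0.18, with Pdx1 gRNA). The part of these cells in the Areg result was not tested. In bulk liver RNA, fewer cells of a type and less RNA per cell cannot be told apart for any gene here.

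Ereg, the neighbour of Areg, encodes epiregulin, a ligand of EGFR and ERBB4. It had 5, 3, 4 and 3 counts with Pdx1 gRNA, 14, 4, 8 and 14 with control gRNA and 11, 7, 6 and 6 with PBS, below the filter. In CPM it averaged 0.234 ± 0.0635 with Pdx1 gRNA, 0.459 ± 0.247 with control gRNA and 0.592 ± 0.111 with PBS (SD, n = 4 each). All Pdx1 gRNA libraries lay below all PBS libraries, while the control gRNA libraries overlapped both. An exact two-sided permutation test over 70 assignments gave p = 0.0286 for Pdx1 gRNA against PBS, the smallest this design allows, p = 0.4 for control gRNA against PBS and p = 0.143 for Pdx1 gRNA against control gRNA. The difference between Pdx1 gRNA and PBS was -0.359 CPM, and -0.311 CPM without the male-pattern PBS libraries (exact permutation p = 0.0667, the smallest that 4 against 2 libraries allow). All Pdx1 gRNA libraries still lay below both remaining PBS libraries. Leaving out Pdx1 gRNA library 1, 2 or 4 gave an exact permutation p of 0.0571, and leaving out control gRNA library 2 gave 0.0286 for Pdx1 gRNA against control gRNA. In some alternative fits edgeR could test Ereg, such as those without a filter or without the male-pattern PBS libraries. Among these it was called only in Pdx1 gRNA against PBS without control gRNA library 2, where it fell.

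Among the 22 other annotated genes within 500 kb of Areg, 7 were tested. None was called in control gRNA against PBS, beside 32.1% of all tested genes, or in Pdx1 gRNA against control gRNA, beside 0%. In Pdx1 gRNA against PBS 1 of the 7, Btc, rose, beside 11.7% of all tested genes rising and 10.4% falling. The chemokine gene Cxcl1 averaged 8.44 CPM with Pdx1 gRNA, 15.8 with control gRNA and 9.60 with PBS. Mthfd2l, a folate enzyme gene between Cxcl1 and Ereg, averaged 3.19 CPM with Pdx1 gRNA, 3.65 with control gRNA and 3.07 with PBS. The predicted gene Gm19619, between Areg and Btc, averaged 10.1 CPM with Pdx1 gRNA, 6.86 with control gRNA and 3.61 with PBS, with adjusted p = 0.0573 in Pdx1 gRNA against PBS and 0.182 in control gRNA against PBS. Epgn, the epigen ligand gene 104 kb from Areg, had 2 counts with Pdx1 gRNA, 1 with control gRNA and 0 with PBS.

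**Figure D2:**
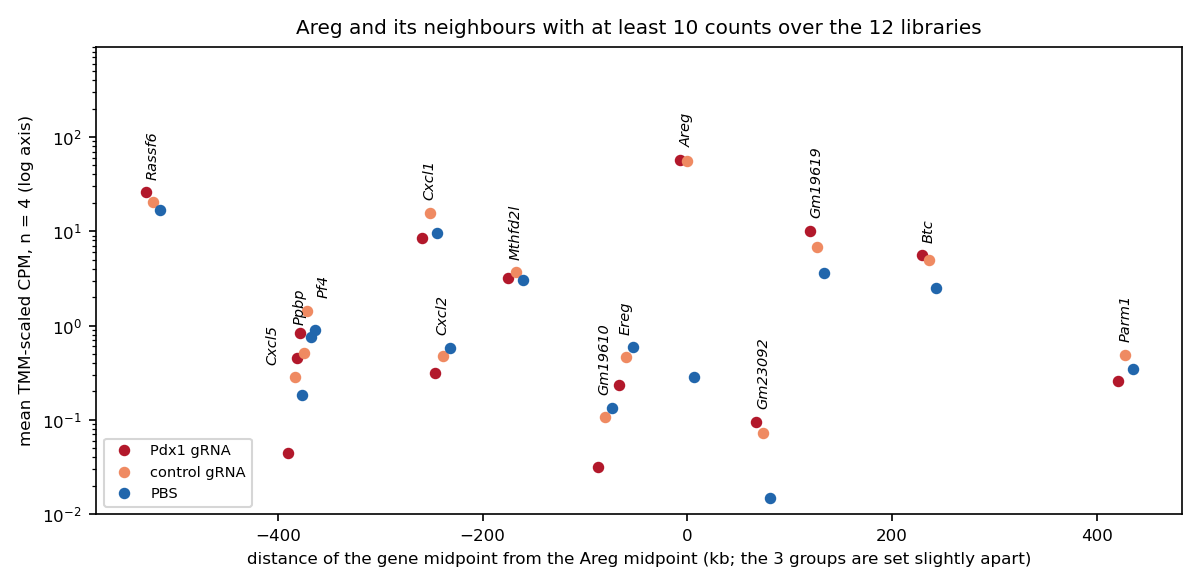
Mean TMM-scaled CPM (log axis, n = 4) of Areg and of annotated genes near it with at least 10 counts over the 12 libraries, placed by the distance of each midpoint from that of Areg in kb. Colours stand for Pdx1 gRNA, control gRNA and PBS; Areg is the gene whose virus and PBS points lie furthest apart.

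Btc encodes betacellulin, a ligand of EGFR and ERBB4. It had 86, 123, 48 and 103 counts with Pdx1 gRNA and 119, 69, 136 and 109 with control gRNA, against 15, 30, 33 and 41 with PBS. Every virus library had a higher CPM than every PBS library, of which library 1 was the lowest. The fit put Btc at 1.17 ± 0.394 on the log2 scale (adjusted p = 0.0498) in Pdx1 gRNA against PBS and 0.99 ± 0.391 (adjusted p = 0.0705) in control gRNA against PBS. The call in Pdx1 gRNA against PBS was lost in 15 of 22 alternatives, with adjusted p from 0.0168 to 0.170 over all of them, and in 11 of the 12 that left out 1 library (all but Pdx1 gRNA library 3). Its value without the male-pattern PBS libraries was 1.54 (adjusted p = 0.0852).

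Hbegf encodes heparin-binding EGF-like growth factor. It had 39, 41, 17 and 67 counts with Pdx1 gRNA and 77, 59, 103 and 44 with control gRNA, against 30, 3, 14 and 34 with PBS. The control gRNA libraries all lay above the PBS libraries in CPM, but the margin between the closest pair was narrow (2.438 CPM in control gRNA library 4 against 2.433 CPM in PBS library 4). The fitted log2 change of Hbegf was 1.06 ± 0.469 (adjusted p = 0.0991) in control gRNA against PBS and 0.69 ± 0.473 (adjusted p = 0.318) in Pdx1 gRNA against PBS, and neither was called. With the male-pattern PBS libraries left out it was 0.56 (adjusted p = 0.381) with control gRNA and 0.20 (adjusted p = 0.777) with Pdx1 gRNA. In control gRNA against PBS, groups did not overlap for 6 of the 9 tested members (3 higher, 3 lower), beside 28.8% of all tested genes, of which 16.5% higher and 12.3% lower. In Pdx1 gRNA against PBS they did not overlap for 5 of the 10 members, Ereg included (2 higher, 3 lower), beside 21.4% of all tested genes, of which 12.7% higher and 8.74% lower.

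Tgfa encodes transforming growth factor alpha, a mitogen of hepatocytes. It had 367, 379, 304 and 555 counts with Pdx1 gRNA and 574, 379, 689 and 373 with control gRNA, against 198, 398, 309 and 338 with PBS. The 3 groups overlapped, and the PBS libraries held both the lowest (11.9 CPM, library 1) and the highest level (37.8 CPM, library 2). The log2 fold change was -0.22 ± 0.28 (adjusted p = 0.585) in control gRNA against PBS and -0.10 ± 0.281 (adjusted p = 0.825) in Pdx1 gRNA against PBS, and its sign turned under library sizes alone and without the male-pattern libraries (0.30 with control gRNA and 0.43 with Pdx1 gRNA).

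Egf, the founding ligand of the family, was scarce. It had 23, 7, 11 and 23 counts with Pdx1 gRNA and 36, 27, 37 and 22 with control gRNA, against 28, 17, 12 and 13 with PBS. All 4 Pdx1 gRNA libraries lay below all 4 control gRNA libraries in CPM, the only member whose groups did not overlap in that comparison, beside 6.65% of all tested genes (3.17% lower). The log2 fold change was -0.55 ± 0.32 (adjusted p = 0.838) between the virus groups, 0.01 ± 0.318 (adjusted p = 0.982) in control gRNA against PBS and -0.54 ± 0.329 (adjusted p = 0.26) in Pdx1 gRNA against PBS. In the fit without the male-pattern PBS libraries it was 0.05 with control gRNA and -0.49 with Pdx1 gRNA, neither called.

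To compare ligands with each other, counts were divided by exon length (TMM-scaled FPKM, that is, CPM divided by kilobases of exon). The 6 ligand genes summed to 53.6 ± 15.0 FPKM with Pdx1 gRNA, 51.6 ± 9.99 with control gRNA and 5.74 ± 1.64 with PBS (SD, n = 4 each). Areg made up 88.3 ± 1.53% of that sum with Pdx1 gRNA and 88.0 ± 1.42% with control gRNA, against 4.73 ± 3.55% with PBS. Tgfa made up 7.21 ± 0.838% with Pdx1 gRNA, 6.81 ± 0.853% with control gRNA and 68.2 ± 12.3% with PBS. With Areg left out, the sum was 6.18 ± 1.41 FPKM with Pdx1 gRNA, 6.14 ± 1.03 with control gRNA and 5.51 ± 1.70 with PBS. The leading ligand transcript was Areg in all 8 virus libraries and Tgfa in all 4 PBS libraries.

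**Figure D3:**
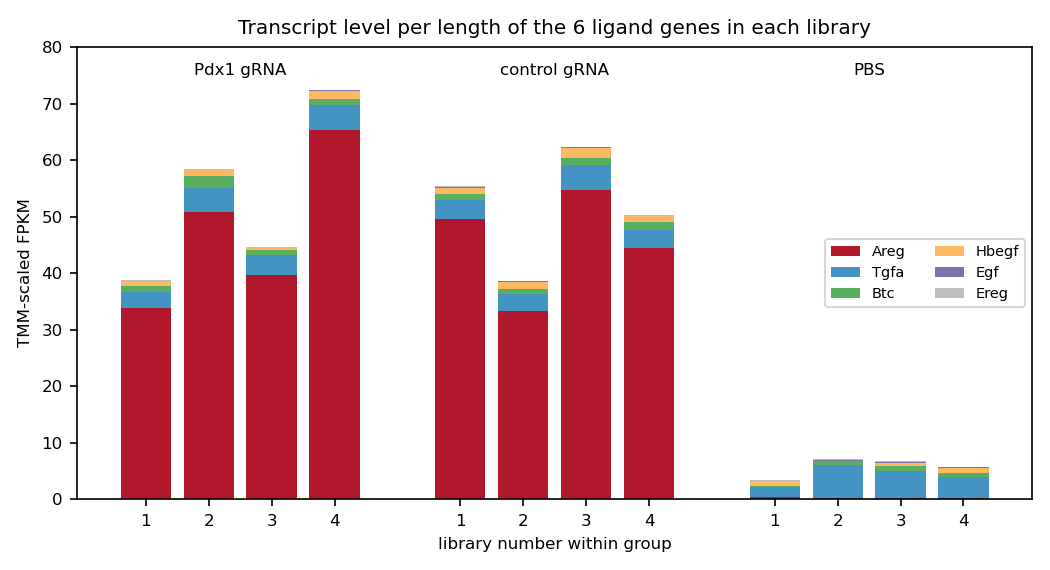
Stacked TMM-scaled FPKM of the 6 ligand genes in each library, with libraries numbered within the Pdx1 gRNA, control gRNA and PBS groups. Red is Areg, which takes 86.2 to 90.2% of each virus library's bar and 2.53 to 10.0% of each PBS library's, and blue is Tgfa.

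Egfr encodes the receptor of all 6 ligands. It had 109, 105, 291 and 69.3 CPM in the Pdx1 gRNA libraries and 49.8, 85.8, 50.6 and 58.5 in the control gRNA libraries, against 325, 705, 509 and 277 in the PBS libraries. The control gRNA libraries lay below all PBS libraries, while Pdx1 gRNA library 3 reached above the lowest PBS library. The highest PBS values were those of the male-pattern libraries 2 and 3. The log2 fold change was -2.89 ± 0.444 (adjusted p = 8.51e-04) in control gRNA against PBS, an estimated 7.42-fold lower level, and -1.66 ± 0.425 (adjusted p = 0.0157) in Pdx1 gRNA against PBS, an estimated 3.17-fold lower level. Left without the male-pattern PBS libraries, it was -2.32 (adjusted p = 0.012) in control gRNA against PBS, and -1.09 (adjusted p = 0.144) in Pdx1 gRNA against PBS, where the call was lost. Between Pdx1 gRNA and control gRNA the difference was 1.23 ± 0.42 (adjusted p = 0.809), and 0.63 without Pdx1 gRNA library 3, the library that also moved the comparison with PBS to -2.26 (adjusted p = 0.00221) when left out.

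Erbb3 encodes a receptor with an impaired kinase that binds neuregulins and signals by pairing with the other receptors. It had 63.8, 76.4, 85.7 and 56.0 CPM in the Pdx1 gRNA libraries and 81.4, 85.0, 72.7 and 80.3 in the control gRNA libraries, against 150, 136, 175 and 190 in the PBS libraries. Both virus groups lay wholly below PBS and overlapped each other. The fitted log2 change of Erbb3 was -1.03 ± 0.158 (adjusted p = 8.51e-04) in control gRNA against PBS and -1.21 ± 0.159 (adjusted p = 6.09e-04) in Pdx1 gRNA against PBS. Both calls held in all 22 alternatives, and without the male-pattern PBS libraries the values were -1.11 (adjusted p = 0.00696) with control gRNA and -1.29 (adjusted p = 0.00554) with Pdx1 gRNA.

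Erbb2 encodes the receptor that has no known ligand of its own. It had 28, 19, 16 and 51 counts with Pdx1 gRNA and 113, 42, 51 and 31 with control gRNA, against 24, 13, 12 and 25 with PBS. Control gRNA library 1 stood above the rest, and the other libraries of the 3 groups overlapped. For Erbb2 the log2 fold change was 0.84 ± 0.356 (adjusted p = 0.0861) in control gRNA against PBS and 0.23 ± 0.362 (adjusted p = 0.689) in Pdx1 gRNA against PBS, and 0.65 with control gRNA and 0.05 with Pdx1 gRNA when the male-pattern PBS libraries were left out. Control gRNA library 1 also had the highest sum of the 8 cholangiocyte (bile duct cell) markers, 436 CPM. That sum ran from 64.7 to 122 with Pdx1 gRNA, from 79.1 to 436 with control gRNA and from 44.5 to 93.0 with PBS. Of the 7 tested markers, 4 rose in control gRNA against PBS, beside 16.3% of all tested genes. None rose in Pdx1 gRNA against PBS, beside 11.7% of all tested genes. No marker of the list was called without the male-pattern PBS libraries. Of 16170 genes tested in that fit, 2258 were called in control gRNA against PBS and 1277 in Pdx1 gRNA against PBS. The part of these cells in the Erbb2 values was not tested.

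Errfi1 encodes MIG6, which binds the EGFR kinase and blocks it, and was the most abundant member per length in every group. It had 975, 970, 1126 and 641 CPM in the Pdx1 gRNA libraries and 579, 686, 737 and 767 in the control gRNA libraries, against 1307, 1999, 1842 and 1860 in the PBS libraries. Both virus groups lay wholly below PBS. Fitted in log2, the change of Errfi1 was -1.34 ± 0.218 (adjusted p = 0.00115) in control gRNA against PBS and -0.92 ± 0.216 (adjusted p = 0.0108) in Pdx1 gRNA against PBS. Setting the male-pattern PBS libraries aside gave -1.22 (adjusted p = 0.0163) in control gRNA against PBS and -0.79 (adjusted p = 0.0837) in Pdx1 gRNA against PBS, where the call was lost. Between the virus groups it was 0.42 ± 0.215 (adjusted p = 0.816).

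Beside these 3 genes, 6 of 8 hepatocyte markers fell in control gRNA against PBS and 2 (Apob and Cyp2e1) in Pdx1 gRNA against PBS, and none rose, where 15.8% and 10.4% of all tested genes fell in these comparisons. The median log2 fold change of the list was -1.13 in control gRNA against PBS and -0.70 in Pdx1 gRNA against PBS. None of the 8 was called in the fit without the male-pattern PBS libraries, where the medians were -0.99 with control gRNA and -0.62 with Pdx1 gRNA. Of all 16170 genes tested there, 2258 were called in control gRNA against PBS and 1277 in Pdx1 gRNA against PBS. The part of hepatocyte number or state in the levels of Egfr, Erbb3 and Errfi1 was not tested.

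**Figure D4:**
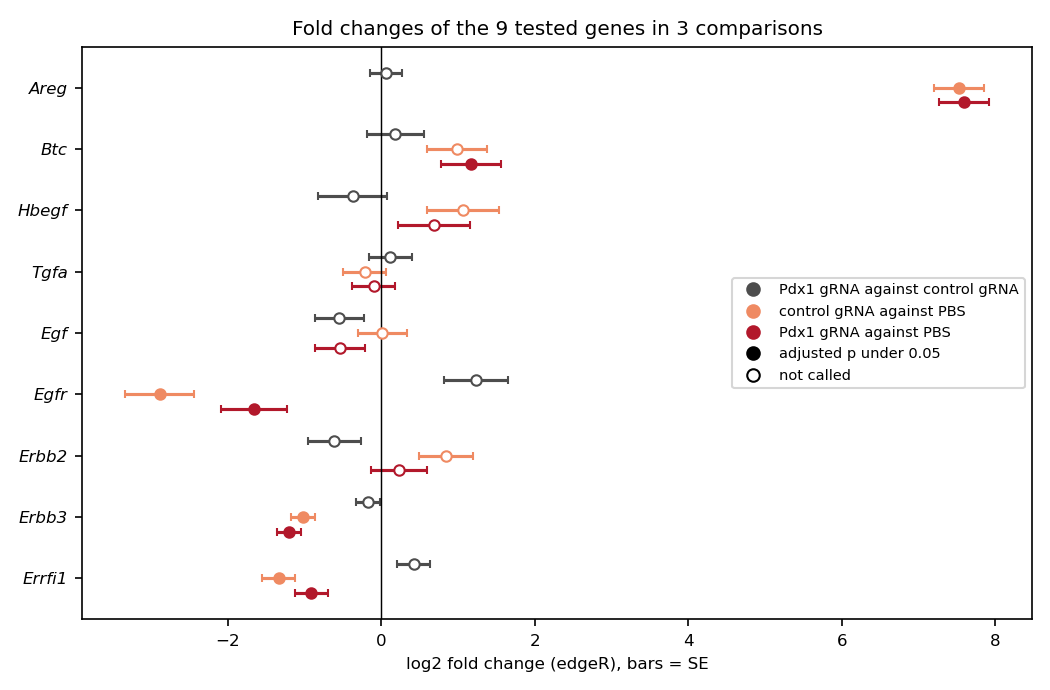
Log2 fold changes with SE of the 9 tested genes for all 3 pairs of groups; filled points have an adjusted p under 0.05 and open points do not. Areg lies at 7.53 (control gRNA) and 7.59 (Pdx1 gRNA) against PBS, and Egfr, Erbb3 and Errfi1 lie below 0 in both.

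In FPKM, the order of levels was Errfi1 (259 ± 57.2), Areg (47.4 ± 13.9), Egfr (12.7 ± 8.80), Erbb3 (11.7 ± 2.19), Tgfa (3.78 ± 0.677), Btc (1.24 ± 0.532), Hbegf (1.02 ± 0.406), Erbb2 (0.319 ± 0.120), Egf (0.0822 ± 0.0283) and Ereg (0.0566 ± 0.0154) with Pdx1 gRNA. There Egfr and Erbb3, Btc and Hbegf, and Egf and Ereg overlapped as neighbours. With control gRNA Errfi1 (193 FPKM) and Areg (45.5) again led, followed by Erbb3 (13.3), Egfr (5.40) and Tgfa (3.48), and all these neighbours were separate. With PBS Errfi1 (489 FPKM) was followed by Egfr (40.1), Erbb3 (27.1) and Tgfa (4.07), of which Egfr and Erbb3 overlapped. Areg, at 0.231 FPKM, ranked 8 of 10 in PBS and overlapped Erbb2 (0.273), but lay above Ereg (0.143) in each library. The ratio of Areg to Egfr in FPKM averaged 5.30 ± 3.92 with Pdx1 gRNA and 9.13 ± 3.51 with control gRNA, against 0.0067 ± 0.00392 with PBS (SD, n = 4 each).

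The EGF family members outside the 10 genes include the neuregulins, which bind ERBB3 and ERBB4. Of 6 such genes, 3 were tested. Nrg1 had 115, 215, 53 and 226 counts with Pdx1 gRNA and 219, 100, 241 and 165 with control gRNA, against 7, 5, 4 and 21 with PBS, and each virus library lay above each PBS library in CPM. Nrg1 rose by 3.49 ± 0.522 on the log2 scale (adjusted p = 7.31e-04) in control gRNA against PBS and by 3.69 ± 0.525 (adjusted p = 8.97e-04) in Pdx1 gRNA against PBS, and both calls held in all 22 alternatives. Erbb4, the remaining receptor, fell by 2.00 ± 0.645 (adjusted p = 0.0316) in control gRNA against PBS. Its call was lost in 10 of 22 alternatives, among them the one without the male-pattern libraries, where it was -2.29 (adjusted p = 0.0704), and in PBS it ran from 8 counts in library 1 to 182 in library 4. Nrg4 averaged 23.3 CPM with Pdx1 gRNA, 18.3 with control gRNA and 16.8 with PBS, and was not called.

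Genes of ligand release were mixed. Of 8 tested, 2 rose and 2 fell with control gRNA against PBS, and these 4 moved the same way in Pdx1 gRNA against PBS. Of all tested genes, 16.3% rose and 15.8% fell in the first comparison, and 11.7% rose and 10.4% fell in the second. Rhbdf2, whose iRhom2 protein carries ADAM17 to the cell surface, rose by 1.17 ± 0.208 (adjusted p = 0.00187) in control gRNA against PBS and by 1.22 ± 0.209 (adjusted p = 0.0022) in Pdx1 gRNA against PBS. Its relative Rhbdf1 rose by 0.90 (adjusted p = 0.02) in control gRNA against PBS. Timp3, an inhibitor of ADAM17, fell to 5.67 CPM with Pdx1 gRNA and 5.14 with control gRNA, against 20.5 CPM with PBS (log2 fold change -1.99 ± 0.45, adjusted p = 0.00607, in control gRNA against PBS). Adam9, a related protease gene, fell by 1.16 (adjusted p = 0.00882). Adam17 itself had a log2 fold change of 0.10 ± 0.167 in control gRNA against PBS and was not called. When the male-pattern PBS libraries were left out, 2 of the 8 were called in control gRNA against PBS (Rhbdf2 and Timp3), and 1 in Pdx1 gRNA against PBS (Rhbdf2). That fit called 2258 of 16170 tested genes in control gRNA against PBS and 1277 in Pdx1 gRNA against PBS. Over the 22 alternatives the calls in Pdx1 gRNA against PBS were lost in 17 for Adam9, 9 for Rhbdf1 and 2 for Timp3. Without the male-pattern PBS libraries Adam9 was -0.55, Rhbdf1 0.62 and Timp3 -1.97 there, beside -0.88, 0.86 and -1.84 with all libraries.

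Of 11 genes that restrain or degrade the receptors, none rose and the same 2 fell in each comparison with PBS, beside 32.1% of all genes called in control gRNA against PBS and 22.1% in Pdx1 gRNA against PBS. Ptprj, a receptor phosphatase gene, fell by 1.04 ± 0.208 (adjusted p = 0.00322) in control gRNA against PBS. Lrig1, whose protein promotes EGFR degradation, fell by 0.91 ± 0.229 (adjusted p = 0.0104) there, a call lost without the male-pattern PBS libraries, where it was -0.38 (adjusted p = 0.139). Its call in Pdx1 gRNA against PBS (-0.75, adjusted p = 0.0342) was lost in 12 of 22 alternatives, 6 of them leave-outs of 1 library. Ptprj kept its calls in all 22 and was the 1 gene of the list called in each comparison without the male-pattern PBS libraries. Among 16170 genes tested in that fit, 2258 were called in control gRNA against PBS and 1277 in Pdx1 gRNA against PBS. The ubiquitin ligase gene Cbl (-0.46, adjusted p = 0.0953) and Lrig3 (-0.52, adjusted p = 0.112) were not called.

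Of 16 adaptor and Ras-ERK core genes, 2 rose and 6 fell in control gRNA against PBS, beside 16.3% and 15.8% of all tested genes. In Pdx1 gRNA against PBS 2 rose and 3 fell, beside 11.7% and 10.4% of all tested genes. The kinase gene Braf fell by 0.69 ± 0.106 (adjusted p = 8.56e-04), the docking protein gene Gab1 by 0.84 ± 0.153 (adjusted p = 0.00202) and the Ras exchange factor gene Sos1 by 1.01 ± 0.199 (adjusted p = 0.00306) in control gRNA against PBS, while Nras rose by 0.71 ± 0.144 (adjusted p = 0.00338). The same 4 genes were called the same way in Pdx1 gRNA against PBS. The ERK1 gene Mapk3 (0.86, adjusted p = 0.00623) was the other to rise in control gRNA against PBS, and Hras (0.60, adjusted p = 0.0157) in Pdx1 gRNA against PBS, both named after their values were seen. Over the 22 alternatives the calls in Pdx1 gRNA against PBS were lost in 17 for Gab1, 12 for Braf, 11 for Nras and 5 for Sos1. In that comparison, without the male-pattern PBS libraries, Gab1 was -0.45, Braf -0.43 and Nras 0.47, beside -0.46, -0.37 and 0.47 with all libraries, and Sos1 was -0.33, beside -0.75. Of the list, 5 genes were called in control gRNA against PBS without the male-pattern PBS libraries (the 4 above and Hras), beside 2258 of 16170 tested genes. In Pdx1 gRNA against PBS it was Hras alone, 1 gene, beside 1277 of 16170.

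ERK output genes, several of which restrain the pathway, went both ways. Of 13 tested, 3 rose and 3 fell in control gRNA against PBS, beside 16.3% and 15.8% of all tested genes. In Pdx1 gRNA against PBS 4 rose and 1 fell, beside 11.7% and 10.4% of all tested genes. Spry4, a sprouty inhibitor gene, had 5.59, 5.45, 9.74 and 2.59 CPM with Pdx1 gRNA and 2.39, 4.43, 3.81 and 2.94 with control gRNA, against 17.3, 20.2, 16.1 and 8.73 with PBS. It fell by 2.20 ± 0.374 (adjusted p = 0.00143) in control gRNA against PBS and by 1.42 ± 0.365 (adjusted p = 0.0162) in Pdx1 gRNA against PBS. The ephrin receptor gene Epha4 fell by 1.79 (adjusted p = 0.00841) in control gRNA against PBS, while its relative Epha2 rose by 0.74 (adjusted p = 0.0265). The ERK phosphatase gene Dusp5 rose by 1.48 ± 0.408 (adjusted p = 0.0157) in control gRNA against PBS and by 1.47 ± 0.41 (adjusted p = 0.0235) in Pdx1 gRNA against PBS. To complete these counts, and named after their values were seen, Dusp4 rose in both (2.06, adjusted p = 0.0279, with control gRNA and 2.34, adjusted p = 0.0231, with Pdx1 gRNA), Spred2 fell in control gRNA against PBS (-0.48, adjusted p = 0.0392) and Ccnd1 rose in Pdx1 gRNA against PBS (1.72, adjusted p = 0.045). In the fit without the male-pattern PBS libraries 3 genes of the list were called in control gRNA against PBS (Spry4, Epha4 and Dusp4). In Pdx1 gRNA against PBS 1 was called there (Dusp4). Of all 16170 genes tested in that fit, 2258 and 1277 were called in these comparisons. The calls of Dusp5 and Epha2 were lost in both. There Epha2 was 0.73 with control gRNA and 0.84 with Pdx1 gRNA, close to the values with all libraries, and Dusp5 was 0.89 with each. In Pdx1 gRNA against control gRNA no gene of these 5 lists was called, the smallest adjusted p being 0.809.

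**Figure D5:**
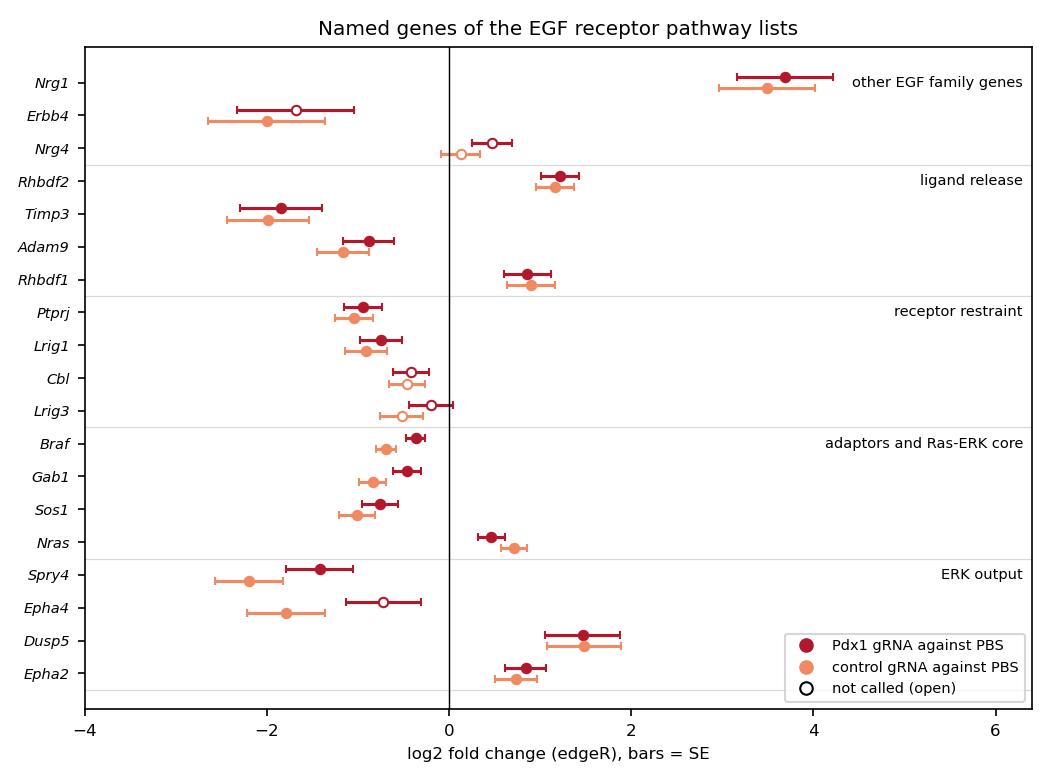
Log2 fold changes with SE of the named genes of the 5 pathway lists in Pdx1 gRNA against PBS (red) and control gRNA against PBS (orange), filled where the adjusted p was under 0.05. Nrg1 lies at 3.69 with Pdx1 gRNA and 3.49 with control gRNA, and Spry4 at -1.42 with Pdx1 gRNA and -2.20 with control gRNA; both comparisons share the PBS libraries.

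By Pearson's r of log2 CPM with Areg, 12255 genes were ranked, as a description. Over all 12 libraries such an r largely reflects the gap in Areg between the virus and PBS libraries. The genes named are the highest of many, and a high r over 8 libraries can also arise by chance. Over the 12 libraries of all groups the highest were Vmn2r3 (r = 0.996), Ddit3 (0.992), Trib3 (0.988), Cyb5r1 (0.986) and Kmt5a (0.983). Vmn2r3, a vomeronasal receptor gene, averaged 22.5 CPM with Pdx1 gRNA and 23.0 with control gRNA, against 0.0793 with PBS. Ddit3, which encodes the transcription factor CHOP, averaged 232 CPM with Pdx1 gRNA and 178 with control gRNA, against 14.5 with PBS. Over the 8 virus libraries alone other genes led: Tnip1 (0.986), Eif4e (0.983), Rubcn (0.978), Qrsl1 (0.972) and Rpusd2 (0.971). Rubcn averaged 25.1 CPM with Pdx1 gRNA and 25.4 with control gRNA, against 27.2 with PBS. For Egfr the highest were Akap1 (0.967), Edrf1 (0.966) and Spry4 (0.965) over the 12 libraries. Over the 8 virus libraries they were Secisbp2 (0.988), Afm (0.981), Urad (0.967), Rexo1 (0.965) and Bace1 (0.961). Among those 8, Pdx1 gRNA library 3 stood apart in Egfr (291 CPM, against 109 or less), so these r may rest largely on that library. Among the members, Egfr and Errfi1 had r = 0.94 over 12 and 0.83 over 8 libraries, and Areg and Tgfa -0.07 over 12 and 0.84 over 8. These are examples of the pairs that Areg and Egfr form. Others were Egfr and Hbegf (-0.82 over 12 and -0.83 over 8), Egfr and Erbb2 (-0.72 and -0.73) and Areg and Erbb3 (-0.95 and -0.46).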

How the data were processed

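Polyadenylated liver RNA was sequenced in 12 libraries, 4 a group. The deposited values are raw counts of fragments per gene. Per the file headers, featureCounts 1.4.6-p4 made them with GENCODE M13, counting paired ends and ignoring strand. Per the submitters' processing notes, Trimmomatic 0.32, STAR 2.4.1a, Subread, DESeq2 1.22.0 and R 3.5.1 were used, on GRCm38 (mm10). Of 50600 gene IDs, 50376 matched a symbol. From these counts, genes were filtered with filterByExpr (minimum count 10), scaled by TMM and fitted over all 12 libraries with edgeR 4.0.16 (quasi-likelihood, robust, two-sided) in R 4.3.3, with Benjamini-Hochberg adjustment over all 15219 tested genes. A gene was called, and is said to have risen or fallen, at an adjusted p under 0.05. CPM and FPKM use TMM-scaled sizes of the tested genes, and FPKM the union of exons. Ereg, under the filter, was tested by exact permutation of CPM. The members and gene lists were chosen with earlier results of these data known. All members were named, and of each list up to 4 genes with the smallest p in control gRNA against PBS, plus up to 2 in Pdx1 gRNA against control gRNA. Likeness used log2 CPM (prior count 2) of tested genes averaging 1 CPM or more. For Egfr over 12 libraries the first 3 genes are given, and the rest of that ranking is not reported here. Alternatives were other scalings, filters, DESeq2 1.42.0, limma-voom (limma 3.58.1), only the 8 libraries compared, a replicate block, each library left out, and PBS libraries 2 and 3 left out. Applying them to the gene lists and their named genes was chosen after seeing the data. The fit was tested on simulated data. The replicate numbers were not taken as pairs: the labels tie them to no shared litter or day, and 3 of 12 same-numbered pairs correlated above 0.1. No library was a copy of another.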

Additional observations from a re-analysis of the deposited data

Results flagged for a closer look

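Among 33 sets of 4 libraries (the CPM of the 10 genes and the Areg share of ligand transcripts, in each group), 1 held a library far from its fellows by Dixon's test; chance alone flags about 1 in 20 such sets. It was the Areg share of the 6 ligand transcripts in PBS library 1, 10.0%, against 2.53 to 3.30% in the other PBS libraries. That library had 7 Areg counts, where the other PBS libraries had 2 or 3, and the lowest Tgfa level of all 12 libraries, 11.9 CPM. The share stayed far below the 86.2 to 90.2% of the virus libraries.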

How the results depend on the processing

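Areg, Erbb3 and Nrg1 kept their calls and directions against PBS in all 22 alternatives, as did Egfr and Errfi1 in control gRNA against PBS. On library sizes alone 7 of the 9 tested members were called in control gRNA against PBS (Btc, Hbegf and Erbb2 besides), beside 5496 of 15219 tested genes. The median of all genes was then 0.343 in control gRNA against PBS and 0.221 in Pdx1 gRNA against PBS. Without the male-pattern PBS libraries 2258 genes were called in control gRNA against PBS, and 1277 genes and 2 members in Pdx1 gRNA against PBS, where Egfr, Errfi1 and Btc lost their calls. Pdx1 gRNA against control gRNA called 14 genes by DESeq2, 1 in the fit of the 8 libraries compared, and 0 to 1 when a library was left out (1 without Pdx1 gRNA library 4 or PBS library 1). Pdx1 gRNA against PBS called 2017 genes in the fit of 8 libraries. When a library was left out it called from 2132 (without Pdx1 gRNA library 4) to 5421 (without PBS library 1). The replicate block, with numbers that do not pair the samples (2 of 12 libraries correlated best with their own number), called 4127 genes in control gRNA against PBS, 2553 in Pdx1 gRNA against PBS and 0 between virus groups; among the members it ended the Btc call (1.21, adjusted p = 0.0602). The Ereg difference with a library left out ran from -0.309 to -0.120 CPM in Pdx1 gRNA against control gRNA and from -0.413 to -0.331 in Pdx1 gRNA against PBS, and was -0.311 without the male-pattern libraries.

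Signs turned near 0 as follows; leave-outs of 1 library are given as ranges. In Pdx1 gRNA against control gRNA, Areg was -0.0059 with upper-quartile factors, -0.0118 on library sizes and -0.136 to 0.192 over the leave-outs (below 0 without Pdx1 gRNA library 4 or control gRNA library 2), and Btc -0.126 to 0.34 (below 0 without Pdx1 gRNA library 2). In control gRNA against PBS, Egf was -0.0154 and -0.0153 with DESeq2 size factors and test, -0.0039 with the stricter filter and with 8 libraries, and -0.138 to 0.138 over the leave-outs (below 0 in 5 of them). There Tgfa was 0.167 on library sizes, 0.301 without the male-pattern libraries and -0.467 to 0.00497 over the leave-outs (above 0 without PBS library 2). Nrg4 was -0.16 without the male-pattern libraries and -0.0315 to 0.336 over the leave-outs (below 0 without PBS library 2). In Pdx1 gRNA against PBS, Tgfa was 0.207 on library sizes, 0.052 with limma-voom, 0.431 without the male-pattern libraries and -0.349 to 0.125 over the leave-outs (above 0 without Pdx1 gRNA library 1 or PBS library 2), and Erbb2 -0.095 to 0.358 (below 0 without Pdx1 gRNA library 4). The cause of these moves was not tested. Low counts limit Ereg, Egf, Erbb2, Hbegf and Areg in PBS, the lowest being 2 counts of Areg in PBS library 3. For a gene at 0, such as Epgn in PBS, a count of 0 allows up to 3 counts, for counting error only.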

Other observations

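The named genes picked for Pdx1 gRNA against control gRNA, none of them called, had log2 differences from -1.27 ± 0.56 for Adam12, a protease gene (adjusted p = 0.809), to 1.07 ± 0.439 for Epha4 (adjusted p = 0.809). Between them lay Spry4 (0.78), Gab1 (0.38), Nrg4 (0.35), Lrig3 (0.33), Braf (0.32), Erbb4 (0.32), Adam9 (0.28) and Cblc (-0.28).

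Other cell type lists were looked at for their levels. Summed macrophage markers ran from 210 to 615 CPM with Pdx1 gRNA, 242 to 839 with control gRNA and 158 to 728 with PBS, and T and NK cell markers from 3.17 to 9.89 CPM with Pdx1 gRNA, 9.42 to 15.8 with control gRNA and 5.80 to 9.47 with PBS. Neutrophil markers ran from 3.63 to 5.97 CPM with Pdx1 gRNA, 8.53 to 14.0 with control gRNA and 3.79 to 13.8 with PBS. Stellate cell markers ran from 83.2 to 199 CPM with Pdx1 gRNA, 116 to 609 with control gRNA and 159 to 319 with PBS. Endothelial markers ran from 74.4 to 145 CPM with Pdx1 gRNA, 87.2 to 171 with control gRNA and 142 to 404 with PBS. In control gRNA against PBS 1 of 9 macrophage markers (Cd68) and 1 of 8 T and NK cell markers (Cd8a) rose, and 1 of 7 stellate cell markers (Reln) and 2 of 6 endothelial markers (Stab2 and Kdr) fell, beside 16.3% of all tested genes rising and 15.8% falling. With Pdx1 gRNA against PBS 3 endothelial markers fell (Pecam1, Stab2 and Kdr) and no other marker of these 5 lists was called, beside 11.7% of all genes rising and 10.4% falling. Without the male-pattern PBS libraries, 1 of 6 endothelial markers fell in control gRNA against PBS, where 1140 of 16170 tested genes fell. In Pdx1 gRNA against PBS 549 of the 16170 genes fell in that fit. Among them were 2 of 6 endothelial, 1 of 8 T and NK cell and 1 of 4 tested neutrophil markers. These genes were named, and this fit of the marker lists was added, after the data were seen.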
